A study of Mus musculus with 12 samples.

Results

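The collagen chain genes were the mouse genes whose symbol is Col followed by a number, the letter a and a number, such as Col1a1. Probe sets assigned to a single symbol gave 42 of them, among 18193 genes named in that way on the arrays. Each gene was read by its brightest probe set, taken as the one with the highest mean over the 12 arrays. The 42 comprised 11 chains of fibrillar collagens, 8 of the basement membrane and 23 others. All values are log2 signals after quantile normalization, and a group is given as mean ± SD over its 3 arrays.

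The arrays came from 2 leg muscles of mice 4 weeks old, the soleus, which is rich in slow fibres, and the tibialis anterior (TA), a fast muscle. The 4 groups held 3 arrays each: KO soleus with WT soleus, and KO TA with WT TA, where KO stands for a knockout of H6pd and WT for wild type. H6pd encodes an NADPH-producing dehydrogenase of the endoplasmic reticulum (ER), the compartment in which procollagen chains are hydroxylated and folded. The labels give no other allele, strain or treatment and do not state which part of H6pd was deleted. They call the 3 arrays of a group biological replicates, without saying whether both muscles came from the same mice.

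Collagens are triple helices of 3 chains with repeating glycine. Fibrillar collagens form the cross-linked fibrils of the connective tissue around muscle fibres, type IV chains form the sheet of the basement membrane that wraps each fibre and capillary, and the fibril-associated collagens (FACITs) sit on fibril surfaces. In muscle most fibrillar collagen is made by fibroblasts between the fibres, while basement membrane chains come from several cell types.

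The single H6pd probe set read 4.19, 4.41 and 6.10 in KO soleus against 5.57, 6.12 and 7.11 in WT soleus, and 6.89, 6.49 and 7.49 in KO TA against 6.37, 6.26 and 7.92 in WT TA, so the groups overlapped in both muscles and this signal did not check the genotype labels. Skeletal muscle markers were bright: all 10 exceeded log2 5 in at least 1 group, and Acta1, the skeletal actin, averaged 16.24 in KO soleus, 16.26 in WT soleus, 16.29 in KO TA and 16.29 in WT TA. The slow myosin gene Myh7 averaged 15.35 in KO soleus, 15.47 in WT soleus, 7.90 in KO TA and 6.01 in WT TA, which matched the muscle labels. The arrays numbered 3 of all 4 groups stood apart from the other 8 on the second principal component, which held 18.6% of the variance. The small number of arrays limits the precision of every value, and in whole muscle fewer cells of a type and less RNA per cell cannot be told apart.

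Of the 42 collagen genes, 21 had a mean above log2 5 in at least 1 group and 21 stayed below it in all groups, where much of the table forms a floor. The 21 brighter genes were 7 fibrillar (Col1a1, Col1a2, Col3a1, Col5a1, Col5a2, Col5a3 and Col11a1), 4 of the basement membrane (Col4a1, Col4a2, Col4a5 and Col15a1) and 10 others. The 10 others were Col6a1, Col6a2 and Col6a3 of the beaded microfibrils, the FACITs Col12a1, Col14a1, Col16a1, Col20a1 and Col22a1, and the network and anchoring chains Col8a1 and Col7a1. Closest to log2 5 on the lower side were Col8a2, with 4.97 ± 0.53 in KO soleus, Col2a1, with 4.95 ± 0.27 in KO TA, and Col18a1, with 4.95 ± 0.04 in WT TA; closest above were Col7a1 and Col20a1, with 5.60 ± 1.12 and 5.97 ± 0.16 in KO TA. The lower 21 included Col2a1, Col9a1, Col9a2, Col9a3, Col10a1 and Col11a2, chains of cartilage, and all 7 cartilage and bone markers measured were likewise below log2 5 in every group. The filter for testing, a signal above the 40th percentile of the array (log2 2.76) on at least 3 arrays, was passed by 38 collagen genes. Col9a1, Col10a1, Col17a1 and Col19a1 did not pass. For 27 of the 42 more than 1 probe set was available.

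Col4a1 and Col4a2, which encode the 2 chains of the ubiquitous type IV heterotrimer, are transcribed in opposite directions from start sites 21 bases apart on chromosome 8. Their transcripts overlap at the starts, and their signals moved together across the arrays. Their promoters are shown for that reason, with those of Col8a1 and Col11a1, which were higher in soleus than in TA. The sequences are RefSeq windows of 250 bases before to 50 bases after the start, on build GRCm38.p6, at chr8:11312777-11313076 on the minus strand for Col4a1, chr8:11312555-11312854 on the plus strand for Col4a2, chr16:57754688-57754987 on the minus strand for Col8a1 and chr3:114030290-114030589 on the plus strand for Col11a1. The Col4a1 and Col4a2 windows share 78 bases. Capitals mark CCAAT and GGGCGG on either strand (ATTGG and CCGCCC on the reverse), and TATAAA was searched as well.
Col4a1: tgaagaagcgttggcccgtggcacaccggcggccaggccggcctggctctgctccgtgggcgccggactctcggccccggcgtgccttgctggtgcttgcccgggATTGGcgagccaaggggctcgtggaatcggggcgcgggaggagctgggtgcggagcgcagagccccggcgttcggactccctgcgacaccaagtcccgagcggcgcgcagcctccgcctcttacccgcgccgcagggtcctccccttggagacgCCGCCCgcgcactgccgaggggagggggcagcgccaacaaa
Col4a2: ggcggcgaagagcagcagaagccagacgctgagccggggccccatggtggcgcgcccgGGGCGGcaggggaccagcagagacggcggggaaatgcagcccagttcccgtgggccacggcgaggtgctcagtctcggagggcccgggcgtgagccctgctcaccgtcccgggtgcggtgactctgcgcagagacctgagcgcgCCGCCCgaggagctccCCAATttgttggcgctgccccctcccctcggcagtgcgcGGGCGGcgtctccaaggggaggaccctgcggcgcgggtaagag
Col8a1: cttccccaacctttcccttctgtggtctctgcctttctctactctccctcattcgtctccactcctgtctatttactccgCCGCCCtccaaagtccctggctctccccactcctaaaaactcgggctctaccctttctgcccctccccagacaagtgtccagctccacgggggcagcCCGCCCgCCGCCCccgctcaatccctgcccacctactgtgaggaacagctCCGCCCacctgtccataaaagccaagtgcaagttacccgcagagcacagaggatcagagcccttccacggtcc
Col11a1: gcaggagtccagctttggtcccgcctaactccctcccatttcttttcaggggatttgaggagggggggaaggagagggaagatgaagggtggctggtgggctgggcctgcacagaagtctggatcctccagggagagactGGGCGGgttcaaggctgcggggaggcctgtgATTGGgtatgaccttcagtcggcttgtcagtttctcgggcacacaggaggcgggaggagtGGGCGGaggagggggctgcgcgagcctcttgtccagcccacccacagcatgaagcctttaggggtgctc

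In these 4 windows TATAAA was absent. CCAAT occurred 1 time each for Col4a1, Col4a2 and Col11a1 and 0 times for Col8a1, and GGGCGG occurred 1, 3, 4 and 2 times for Col4a1, Col4a2, Col8a1 and Col11a1. The GGGCGG of Col4a1 lies in the 78 bases that its window shares with that of Col4a2, and is 1 of the 3 counted there. No match of one motif overlapped another. The promoter table held 36 windows of 33 collagen genes. GGGCGG was in 22 of these 36 (61.1%) and in 35.6% of all 32817 promoters, CCAAT in 13 (36.1%) and in 37.4%, and TATAAA in 5 (13.9%) and in 13.6%.

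In soleus, collagen transcripts of KO and WT mice did not differ past the test. On the log2 scale the 7 brighter fibrillar chains differed by -0.30 to 0.42, the pair Col4a1 and Col4a2 by -0.31 and -0.30, and the largest difference among brighter genes was the 0.86 of Col8a1, whose product builds the short-chain networks of vessel walls and the cornea. By limma with Benjamini-Hochberg adjustment over all 13008 tested genes, 0 of 38 collagens passed an adjusted p of 0.05, in a comparison where 0.0308% of all genes did. At an unadjusted p under 0.05 there were 3 collagens, against 8.76% of all genes. A p that misses the threshold does not show that the genotypes were alike. KO and WT arrays did not overlap in 4 of 38 collagens, against 12% of all genes, and both shares were no higher than the background.

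Among the fibrillar chains in soleus, Col1a1, the alpha-1 chain of type I collagen, read 13.12, 12.69 and 13.19 on the KO arrays against 13.39, 13.41 and 13.10 on the WT arrays (difference -0.30, SE 0.29, limma adjusted p = 0.913). The lower KO values overlapped WT replicate 3. Col1a2, its partner chain, averaged 14.03 ± 0.31 in KO and 14.04 ± 0.37 in WT soleus. Col3a1, the homotrimeric fibril collagen of soft tissue, averaged 14.71 ± 0.13 in KO and 14.62 ± 0.38 in WT, and Col5a2, of the type V collagen that starts fibrils, 11.44 ± 0.20 in KO and 11.26 ± 0.44 in WT. Over the 7 brighter fibrillar genes 4 differences were positive, with a median of 0.08 against 0.00 over all tested genes. Over all 11 fibrillar genes 4 were positive and the median was -0.01.

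In the basement membrane class of soleus, Col4a1 read 13.04, 12.82 and 12.87 in KO against 13.23, 13.37 and 13.05 in WT. Every KO value was lower than every WT value, though KO replicate 1 and WT replicate 3 nearly met. The difference was -0.31 (SE 0.10, unadjusted p = 0.011, limma adjusted p = 0.353), and a second probe set differed by -0.28. With array weights Col4a1 passed (-0.41, adjusted p = 0.0374), in a fit that called 360 genes against 4 without them. Col4a2 read 10.76, 10.61 and 10.37 in KO against 10.82, 11.22 and 10.60 in WT, with an overlap of the groups (difference -0.30, SE 0.17), and the difference was -0.13 without WT replicate 2. Col15a1, which links the basement membrane to the fibrils beside it, averaged 8.17 ± 0.30 in KO and 8.11 ± 0.52 in WT. All 10 endothelial markers were tested beside these chains, and 9 had lower means in KO than in WT soleus, with 0 past the limma test and a median difference of -0.30. Their summed linear signal was 3011 to 4363 in KO and 3925 to 5050 in WT soleus, and its part in the type IV values was not tested. Of 10 smooth muscle and pericyte markers, 2 of them below log2 5 in all groups, 9 also had lower means in KO (median -0.13, 0 past the limma test, summed signal 25133 to 29447 in KO and 27044 to 30006 in WT soleus), and their part was not tested either.

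Among the other collagens of soleus, Col8a1 read 9.70, 9.45 and 10.42 in KO against 9.44, 8.81 and 8.75 in WT. The KO values were all above the WT values, KO replicate 3 the furthest (difference 0.86, SE 0.35, unadjusted p = 0.0359, limma adjusted p = 0.52). Without the arrays numbered 3 the difference was 0.45. Col23a1, a transmembrane collagen, read 3.74, 3.73 and 5.21 in KO against 3.27, 3.14 and 3.11 in WT soleus. Only KO replicate 3 exceeded log2 5, so the 1.05 (SE 0.32, adjusted p = 0.324) is a difference close to the floor, and without that array it was 0.56. The type VI chains, which form beaded microfibrils next to the basement membrane, lay together: Col6a1 averaged 11.25 ± 0.15 in KO and 11.30 ± 0.18 in WT, Col6a2 11.63 ± 0.04 and 11.67 ± 0.32, and Col6a3 10.92 ± 0.37 and 10.92 ± 0.60. The 10 brighter genes of these other classes had a median difference of 0.09.

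In TA, no collagen gene passed the test between KO and WT either. Over the 38 tested, 24 differences were positive and the median was 0.07, against -0.00 over all tested genes. Among the 21 brighter genes 18 were positive with a median of 0.28 (1.21-fold), but Col7a1 is counted there only through its KO TA mean. Chosen by the mean over all 12 arrays instead, 20 collagens exceeded log2 5, of which 17 were positive with a median of 0.27, against 51.2% of the 8564 genes above that mean and their median of 0.01. These counts are a description and no test. Col22a1, a FACIT of the myotendinous junction, had the largest difference in the other direction, at -1.12. Limma called 0 of 38 collagens at an adjusted p of 0.05, where 2.83% of all genes passed. At an unadjusted p under 0.05 there were 2 collagens, against 17.1% of all genes, and the groups did not overlap in 4 of 38, against 23.2% of all genes. These shares were no higher than the background.

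For the fibrillar class in TA all 7 brighter genes had a higher mean in KO, by 0.11 to 0.32 and with a median of 0.20; over all 11 it was 9, with a median of 0.14. Col1a1 read 14.28, 13.33 and 13.50 in KO TA against 13.89, 13.48 and 12.90 in WT TA (difference 0.28, SE 0.29, limma adjusted p = 0.688). The groups overlapped widely, and the difference was -0.0043 without KO TA replicate 1. Col3a1 averaged 14.78 ± 0.22 in KO and 14.58 ± 0.04 in WT TA, Col1a2 14.09 ± 0.40 in KO and 13.99 ± 0.34 in WT, and Col5a2 11.12 ± 0.39 in KO and 10.98 ± 0.29 in WT. The spread within either group was larger than each of these last 2 differences.

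The 4 brighter basement membrane chains also had higher means in KO TA, with a median of 0.30, while over all 8 it was 4, with a median of 0.06. Col4a1 read 13.33, 13.24 and 13.30 in KO against 13.16, 13.22 and 13.04 in WT (difference 0.15, SE 0.10, limma adjusted p = 0.487), and Col4a2 11.09, 11.09 and 10.96 in KO against 10.81, 10.91 and 10.46 in WT (0.32, SE 0.17, adjusted p = 0.395). For both genes the KO values lay above all WT values. Col4a5, an X-linked type IV chain known from the kidney filter and mutated in Alport syndrome, read 6.25, 5.39 and 6.61 in KO against 4.93, 5.47 and 5.51 in WT, where KO replicate 2 fell among the WT arrays (0.78, SE 0.40, adjusted p = 0.368). Of the 10 endothelial markers 9 had higher means in KO than in WT TA with 0 past the limma test, their summed signal being 3624 to 4118 in KO and 3256 to 3808 in WT, and all 10 fibroblast markers tested had higher means (median 0.18, 0 past the test, summed signal 29798 to 60552 in KO and 25892 to 51765 in WT). All 4 adipocyte markers tested had higher means as well (median 0.29, 0 past the test, summed signal 15948 to 20271 in KO and 11090 to 17231 in WT). Retn (2.10 in KO and 2.06 in WT TA) and Cidec (3.36 and 3.14) lay near the floor. The sum was mainly that of Fabp4 (14.13 and 13.77), far brighter than Adipoq (6.54 and 4.98). Of the 10 smooth muscle and pericyte markers 3 had higher and 7 lower means in KO TA, with a median of -0.16. Among them 1 passed limma, Lmod1, as lower in KO TA, where 2.83% of all genes passed. Its means of 2.40 in KO and 3.27 in WT TA lie near the floor. The part of these lists in the collagen values was not tested.

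Among the other collagens of TA, Col22a1 read 7.12, 4.46 and 6.22 in KO against 7.27, 6.90 and 7.0 in WT. KO replicate 2 was the lowest and KO replicate 1 lay within the WT range (difference -1.12, SE 0.55, limma adjusted p = 0.341), and without KO replicate 2 the difference was -0.38. A second probe set of this gene differed by -0.11 and another by -0.10. Thbs4, a matrix protein of tendon and of the myotendinous junction, was the 1 of 10 tendon markers past the test, where 2.83% of all genes passed. It fell in KO TA, to 9.94 ± 0.63 against 11.52 ± 0.08 in WT TA (-1.58, SE 0.30, limma adjusted p = 0.0256). Its call was lost without KO TA replicate 2 (-1.23, adjusted p = 0.062), and also without KO TA replicate 3 or any single WT TA array, at adjusted p up to 0.0747. Of the 10 tendon markers 6 had higher and 4 lower means in KO TA, with a median difference of 0.07. The summed signal of the tendon markers was 6620 to 15172 in KO and 10053 to 11858 in WT TA, and its part in Col22a1 was not tested.

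Col20a1, another FACIT, read 5.83, 5.94 and 6.15 in KO TA against 5.47, 5.50 and 5.47 in WT TA, without overlap (difference 0.49, SE 0.18, limma adjusted p = 0.194). Col8a1 averaged 7.67 ± 0.59 in KO and 7.22 ± 0.38 in WT TA, Col14a1, a FACIT that binds fibril surfaces, 8.25 ± 0.62 in KO and 7.86 ± 0.34 in WT, and Col7a1, the anchoring fibril collagen of skin, 5.60 ± 1.12 in KO and 4.95 ± 1.0 in WT. These differences stayed within 1 to 2 standard errors. The type VI chains differed by 0.30 (Col6a1), 0.15 (Col6a2) and 0.32 (Col6a3).

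**Figure D1:**
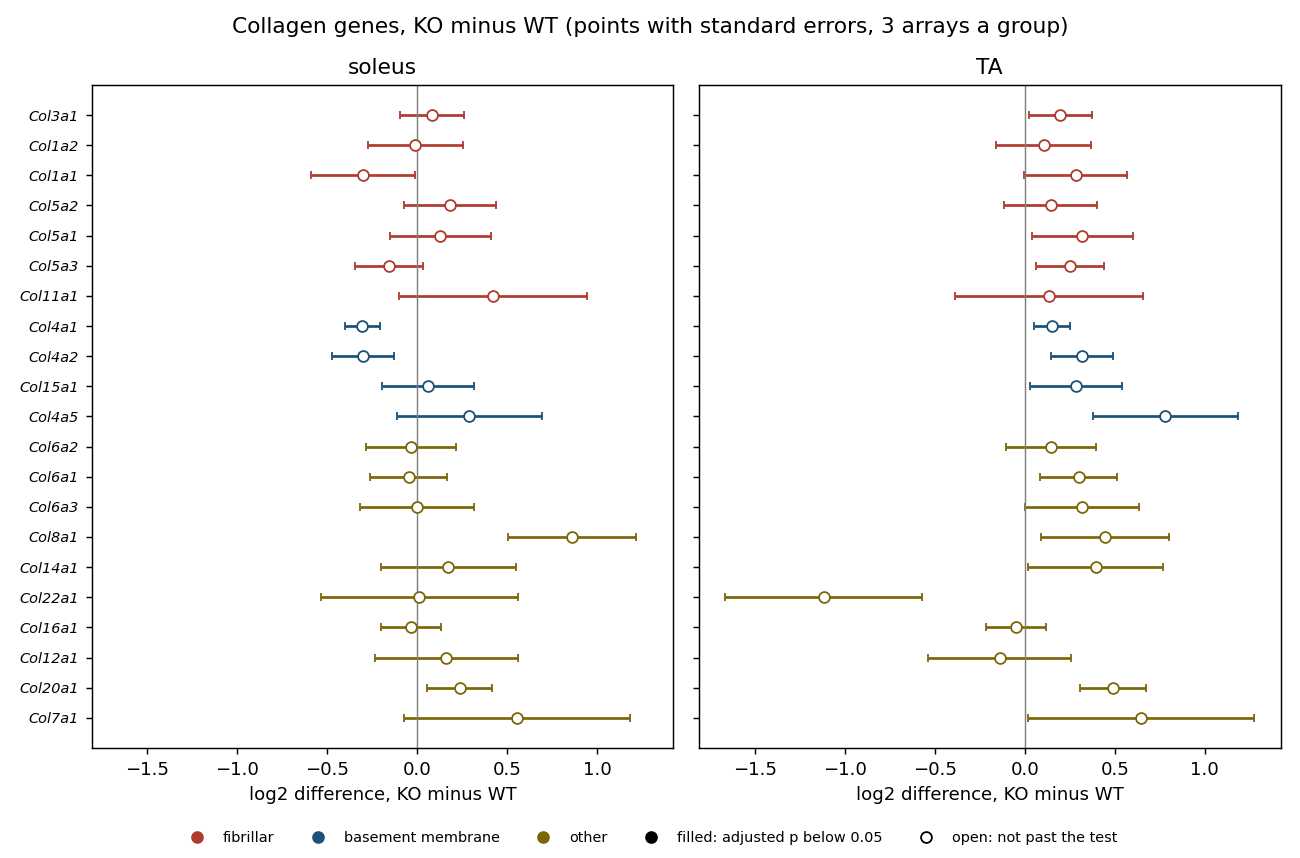
Log2 difference KO minus WT, with standard errors, for the 21 brighter collagen genes in soleus (left) and TA (right), 3 arrays a group. No point passed the test; in TA 18 of 21 lie above 0, while in soleus 12 do.

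For the type IV pair the difference of KO from WT was negative in soleus and positive in TA, and neither gene passed the test in either muscle or for the difference between them. Subtracting the TA effect from the soleus effect gave -0.46 for Col4a1 (SE 0.14, unadjusted p = 0.0081) and -0.62 for Col4a2 (SE 0.24, unadjusted p = 0.0296). In this interaction test limma called 0 of 38 collagens, where 0.0384% of all genes passed, and the adjusted p was 0.625 for Col4a1 and 0.817 for Col4a2. These 2 were the collagens with an unadjusted p under 0.05, against 5.7% of all genes, a share near the background. All 4 brighter basement membrane chains had a negative interaction, with a median of -0.48, against -0.12 in the fibrillar class and 0.01 over all tested genes. Over all 8 basement membrane chains 5 were negative and 3 positive, with a median of -0.14. All 10 endothelial markers had a negative interaction too, with a median of -0.43 and 0 past the limma test, and their part in these values was not tested. Col22a1 had the largest positive value, 1.13 (adjusted p = 0.899), which was 0.39 without KO TA replicate 2.

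Between the muscles, a few collagen genes differed severalfold while the chains of types I, III, V and VI did not pass the test. Of the brighter type IV chains Col4a5 passed in WT mice and Col4a1 in KO mice, while Col4a2 passed only in KO mice with the replicate block. The dim type IV chains Col4a3, Col4a4 and Col4a6 did not pass. Col8a1 was higher in soleus in both genotypes, 4.56-fold in KO mice and 3.43-fold in WT mice. Col22a1 and Col11a1 rose past the test in KO soleus against KO TA, and Col4a5 in WT soleus against WT TA. In KO mice 4 of 38 collagens passed, 3 higher and 1 lower in soleus, where 8.94% of all genes passed (4.34% higher and 4.6% lower). In WT mice 3 passed, 2 higher and 1 lower, where 10.7% of all genes did (4.45% higher and 6.28% lower). The groups did not overlap in 16 of 38 collagens in KO mice, against 30.2% of all genes, and in 12 of 38 in WT mice, against 35.2%. The muscle comparisons use the same arrays as the genotype comparisons.

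Col8a1 read 9.70, 9.45 and 10.42 in KO soleus against 7.88, 7.0 and 8.13 in KO TA, and 9.44, 8.81 and 8.75 in WT soleus against 7.23, 7.60 and 6.84 in WT TA. Every soleus array lay above every TA array. The difference was 2.19 in KO mice (SE 0.35, limma adjusted p = 0.00486) and 1.78 in WT mice (SE 0.35, adjusted p = 0.0122). Without WT soleus replicate 1 the WT difference was 1.56 and missed the threshold (adjusted p = 0.0526). A second probe set differed by 1.41 in KO mice (adjusted p = 0.181) and 0.95 in WT mice (adjusted p = 0.33). The mean of probe sets gave smaller differences than the brightest, 1.46 in KO mice (limma adjusted p = 0.00808) and 1.03 in WT mice (0.0334).

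Col4a5 read 7.89, 7.04 and 7.50 in KO soleus against 6.25, 5.39 and 6.61 in KO TA, and 7.85, 7.21 and 6.50 in WT soleus against 4.93, 5.47 and 5.51 in WT TA. The soleus values were above the TA values within each genotype. In WT mice the difference was 1.88, or 3.69-fold (SE 0.40, limma adjusted p = 0.0167), and it lost the call without WT soleus replicate 1 (1.55, adjusted p = 0.062), WT soleus replicate 2 (1.87, 0.0535) or WT TA replicate 1 (1.70, 0.0594). In KO mice it was 1.39 (SE 0.40, adjusted p = 0.0608), which passed with the replicate number as a block (adjusted p = 0.0496). Whether the muscles differ more in WT than in KO mice is the interaction again, -0.49 with an adjusted p of 0.923.

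Col11a1, a minor fibrillar chain that starts fibrils in cartilage and developing tendon, read 9.62, 8.89 and 8.87 in KO soleus against 8.17, 7.32 and 6.14 in KO TA. In WT mice it read 9.24, 8.65 and 8.23 in soleus against 7.68, 7.26 and 6.28 in TA. Soleus was above TA on every array, and the arrays numbered 3 were the lowest of each group. The difference was 1.92 in KO mice (SE 0.52, limma adjusted p = 0.0489) and 1.63 in WT mice (SE 0.52, adjusted p = 0.0753). The call in KO mice ended when any 1 of the 3 KO soleus arrays, or KO TA replicate 2 or 3, was left out (1.38 to 2.05, adjusted p = 0.0736 to 0.17). With the replicate number as a block both passed, at adjusted p = 0.00187 in KO and 0.00345 in WT mice. Another probe set gave 1.91 (adjusted p = 0.0745) and 1.5 (adjusted p = 0.132).

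Col22a1 read 8.44, 7.58 and 8.30 in KO soleus against 7.12, 4.46 and 6.22 in KO TA, and 8.23, 8.30 and 7.76 in WT soleus against 7.27, 6.90 and 7.0 in WT TA. Here too soleus and TA did not overlap, and KO TA replicate 2 was the lowest of the 12 arrays. The difference was 2.17 in KO mice (SE 0.55, limma adjusted p = 0.0364) and 1.04 in WT mice (SE 0.55, adjusted p = 0.251). Without KO TA replicate 2 the KO difference was 1.43 and still passed (adjusted p = 0.0469), whereas leaving out KO soleus replicate 1, 2 or 3 or KO TA replicate 3 ended the call (adjusted p = 0.0504 to 0.127). A second probe set gave 1.32 in KO mice (adjusted p = 0.0273) and 0.44 in WT mice. The mean of probe sets gave a smaller difference in KO mice, 1.13 (limma adjusted p = 0.017).

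**Figure D2:**
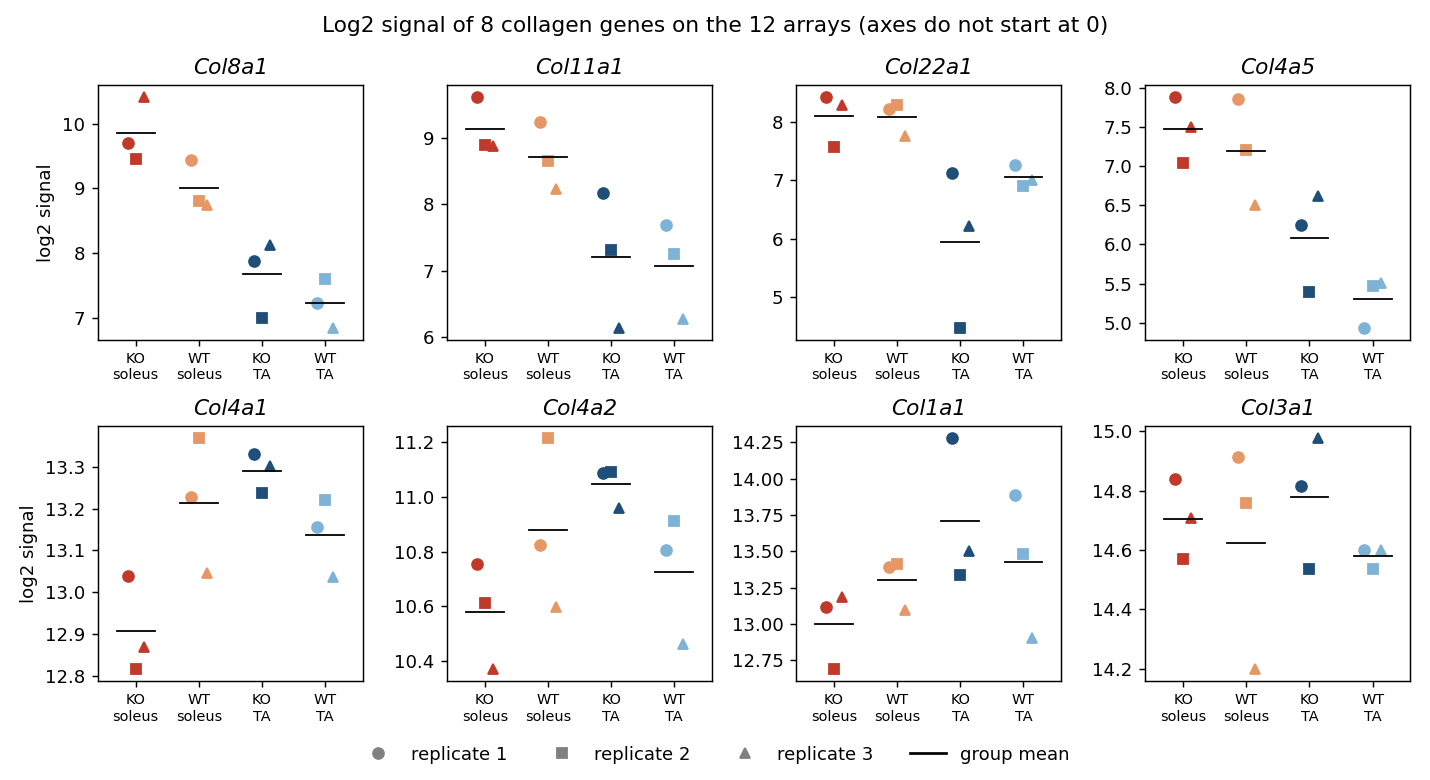
Log2 signal of 8 collagen genes on each of the 12 arrays by group, with replicate numbers as symbols and group means as lines; the axes do not start at 0. For Col8a1, Col11a1, Col22a1 and Col4a5 every soleus point lies above every TA point of the same genotype, while for Col4a1 the KO soleus points lie below those of WT soleus, by little for WT replicate 3, and below those of KO TA.

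Col4a1 was the collagen gene that fell in KO soleus against KO TA, from the same array values as above: 13.04, 12.82 and 12.87 in KO soleus against 13.33, 13.24 and 13.30 in KO TA. The difference was -0.38, or 1.30-fold (SE 0.10, limma adjusted p = 0.0395), with no overlap, but it lost its call when any single KO array was left out (-0.45 to -0.33, adjusted p = 0.0501 to 0.117). In WT mice Col4a1 differed by 0.08 (SE 0.10) and -0.00095 without WT soleus replicate 2. Col4a2 differed by -0.47 in KO mice (SE 0.17, adjusted p = 0.132, and 0.0244 with the replicate block) and by 0.15 in WT mice. Of the 10 endothelial markers 6 had lower and 4 higher means in KO soleus than in KO TA, from -0.59 to 0.51 (median -0.25), 0 of them past the limma test and 1, Tek, higher with the block; their part was not tested.

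Col9a3, a FACIT chain of cartilage, was called lower in WT soleus than in WT TA by 0.27 (SE 0.07, limma adjusted p = 0.0422). Its group means of 3.53 ± 0.04 in KO soleus, 3.52 ± 0.08 in WT soleus, 3.60 ± 0.12 in KO TA and 3.78 ± 0.11 in WT TA lie near the floor, and leaving out any single WT array ended the call (adjusted p = 0.0516 to 0.148). Col7a1 was lower in soleus in both genotypes, 3.91 ± 0.75 in KO soleus against 5.60 ± 1.12 in KO TA (difference -1.69, SE 0.63, adjusted p = 0.133) and 3.35 ± 0.34 in WT soleus against 4.95 ± 1.0 in WT TA (-1.60, SE 0.63, adjusted p = 0.136). With the replicate number as a block Col7a1 passed in KO (adjusted p = 0.023) and in WT mice (0.0265). Its soleus means lie near the floor. Its arrays numbered 3 read above the mean of the other 2 by 1.30 in KO soleus, 0.23 in WT soleus, 1.92 in KO TA and 1.28 in WT TA. Col12a1, a FACIT of tendon and the muscle's connective tissue, differed by 1.17 in KO mice (adjusted p = 0.104, and 0.0197 with the block) and 0.87 in WT mice (adjusted p = 0.192). Among low signals, Col23a1 differed by 1.14 between the KO muscles (adjusted p = 0.0571). Without KO soleus replicate 3 it differed by 0.64 and passed (adjusted p = 0.00569), and without KO soleus replicate 2 by 1.39 (adjusted p = 0.0421). With the block 8 of 38 collagens passed in KO mice, where 16.9% of all genes did, and 5 of 38 in WT mice, where 18.2% did, so neither count stood far from the background.

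**Figure D3:**
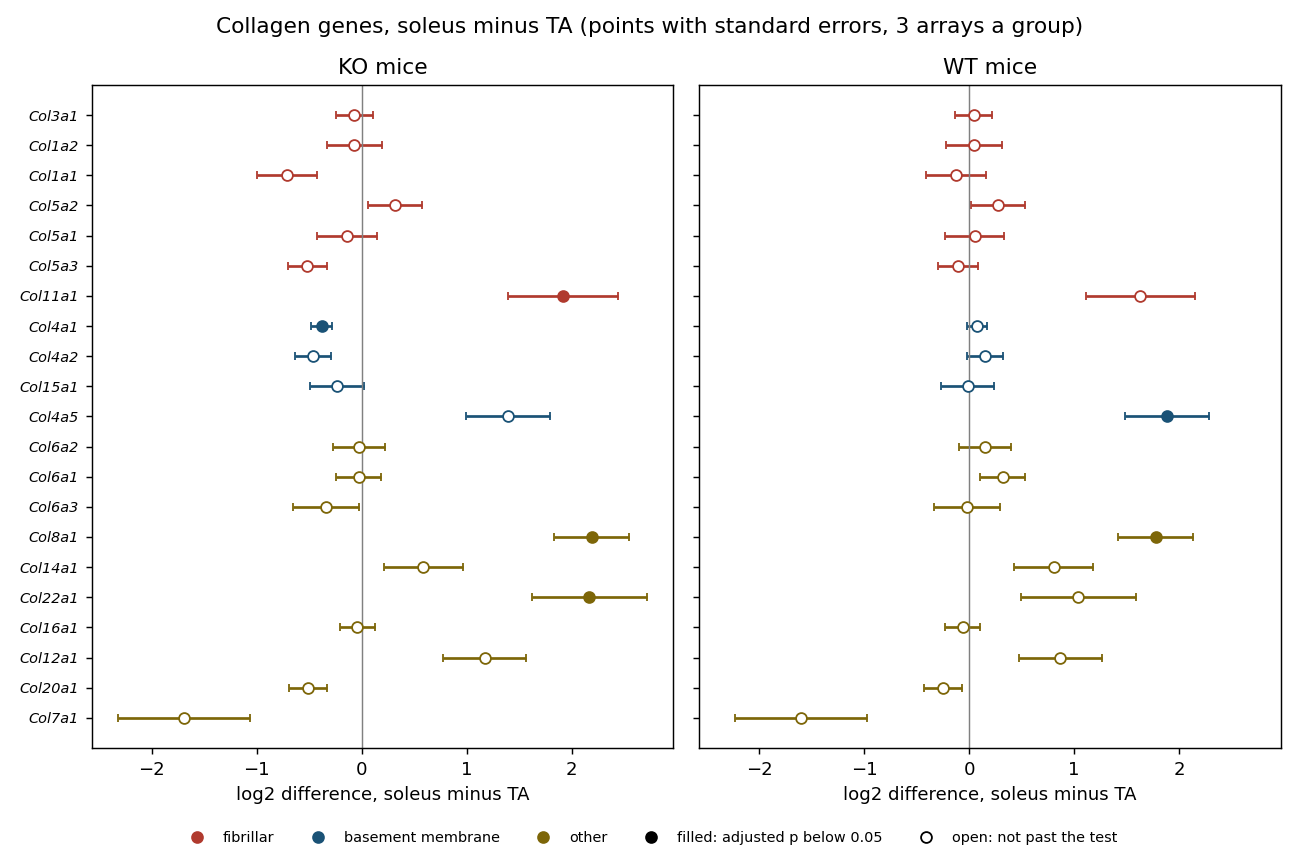
Log2 difference soleus minus TA, with standard errors, for the 21 brighter collagen genes in KO mice (left) and WT mice (right), 3 arrays a group; filled points passed the test. Col8a1 is filled in both panels, Col11a1, Col22a1 and Col4a1 in KO mice, and Col4a5 in WT mice.

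No chain of types I, III or V passed the test between the muscles. Col3a1 differed by -0.07 in KO mice and 0.04 in WT mice, Col1a2 by -0.07 and 0.05, and Col5a2 by 0.32 and 0.28. Col1a1 averaged 13.00 ± 0.27 in KO soleus against 13.71 ± 0.50 in KO TA (difference -0.71, SE 0.29, limma adjusted p = 0.166) and 13.30 ± 0.17 in WT soleus against 13.42 ± 0.49 in WT TA (-0.12). Over the 7 brighter fibrillar genes the median was -0.07 in KO mice and 0.05 in WT mice, over the 4 of the basement membrane -0.31 and 0.11, and over the 10 others -0.03 and 0.24, beside -0.02 in both genotypes over all tested genes. With the dim genes included the medians were -0.14 and -0.05 for the 11 fibrillar genes, -0.17 and -0.02 for the 8 of the basement membrane, and -0.03 and -0.01 for the 19 others tested.

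Averaged over a class on each array, the 3 classes followed one another loosely, with spreads within groups as wide as the gaps between most groups. After subtracting the mean over all 12 arrays, the 4 brighter basement membrane genes stood at 0.12 ± 0.23 in KO soleus, 0.18 ± 0.35 in WT soleus, 0.04 ± 0.20 in KO TA and -0.34 ± 0.07 in WT TA. The 3 WT TA arrays, from -0.40 to -0.27, were lower than the other 9. Between the WT muscles the 4 genes differed by -0.01 to 1.88, with a median of 0.11. The highest was Col4a5, so that gap of the class was mainly that of Col4a5. The 7 fibrillar genes stood at 0.12 ± 0.21 in KO soleus, 0.07 ± 0.32 in WT soleus, 0.01 ± 0.31 in KO TA and -0.19 ± 0.27 in WT TA, and the 10 others at 0.26 ± 0.25, 0.07 ± 0.24, -0.09 ± 0.48 and -0.23 ± 0.18 in the same groups. In these 2 classes all groups overlapped with at least 1 other.

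**Figure D4:**
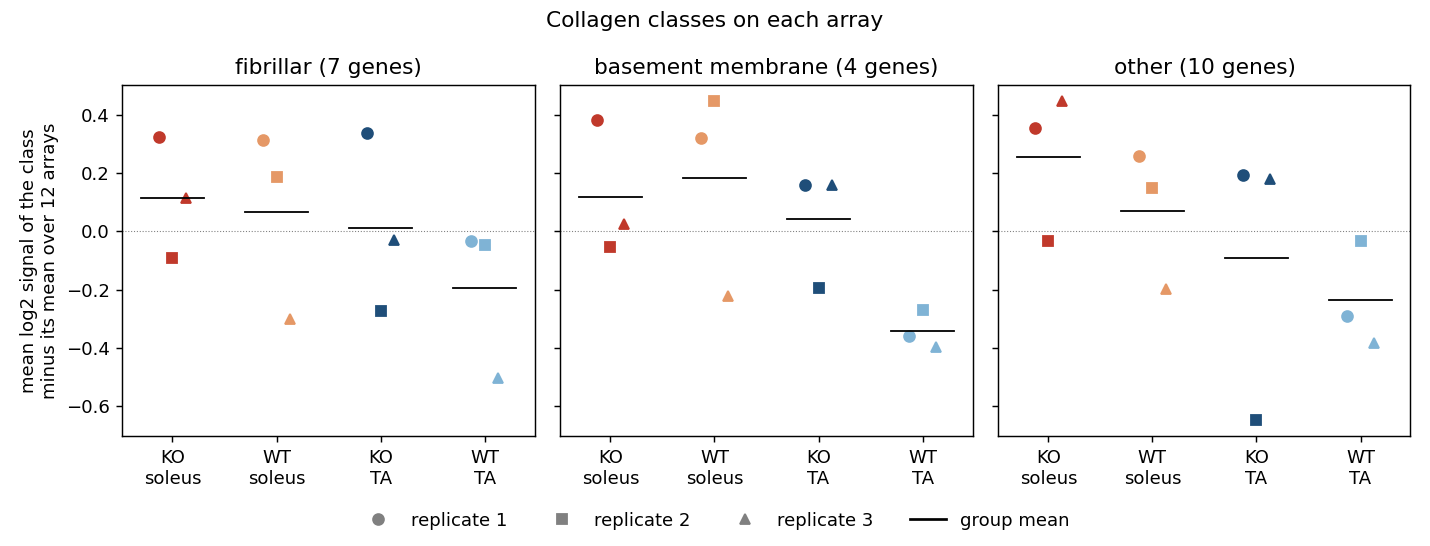
Mean log2 signal of the brighter genes of each class on each array, minus the mean of that class over the 12 arrays, by group, with replicate numbers as symbols and group means as lines. The WT TA arrays are the lowest for the basement membrane class (-0.40 to -0.27), and KO TA replicate 2 is the lowest for the others (-0.65). Between the WT muscles the gap of the basement membrane class is mainly that of Col4a5.

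Pairs of chains that assemble together can be compared by the correlation of their deviations from the mean of each muscle over the 12 arrays, a description in which the points share arrays and normalization. Pearson's r was 0.87 for Col4a1 with Col4a2, 0.85 for Col6a1 with Col6a2, which lie next to each other on chromosome 10, and 0.74 for Col1a1 with Col1a2, the 2 chains of type I collagen. Col3a1 and Col5a2, neighbours on chromosome 1, had r = 0.83. Within the fibrillar class r was 0.35 for Col1a1 with Col3a1. Between classes r was 0.63 for Col1a1 with Col4a1, 0.27 for Col1a1 with Col8a1 and -0.17 for Col4a1 with Col8a1. Among all tested genes those most like Col1a1 by this measure were Cd99 (0.89), Actn4 (0.85) and Emilin1 (0.85), and those most like Col4a1 were Plekhb2 (0.89), Fam171a1 (0.89, at a mean signal of 3.26 near the floor) and Adgre5 (0.88).

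The enzymes and chaperones that modify, fold and export procollagen in the ER were higher in KO TA than in WT TA for 2 of 20 tested genes, where 2.83% of all genes passed, and 17 of 20 had a positive difference, with a median of 0.27 against -0.00 over all genes. P4hb, the disulfide isomerase that is also the beta subunit of prolyl 4-hydroxylase, rose 2.04-fold, to 12.29 ± 0.12 in KO TA against 11.26 ± 0.11 in WT TA (1.03, SE 0.15, limma adjusted p = 0.0101). Ppib, the ER cyclophilin that speeds folding of the triple helix, averaged 11.67 ± 0.04 in KO TA and 11.02 ± 0.33 in WT TA (0.65, SE 0.14, adjusted p = 0.0453). Its call was lost without WT TA replicate 1 or 3 or any of the 3 KO TA arrays (adjusted p up to 0.136), while P4hb kept its call with each single array left out and lost it without all arrays numbered 3 (0.94, adjusted p = 0.0673) or in a fit on the TA arrays alone (adjusted p = 0.0562). Both proteins also fold many clients other than collagen. With the replicate number as a block 4 of 20 passed, where 7% of all genes did; Sec23a (0.41, adjusted p = 0.0554 without the block) and the prolyl 3-hydroxylase gene P3h1 (0.75, adjusted p = 0.0672 without the block) were added. In soleus 0 of the 20 passed limma, 12 were positive and the median was 0.06. P3h2, a prolyl 3-hydroxylase of type IV collagen, differed there by 1.66 (adjusted p = 0.394) and Colgalt2, a collagen galactosyltransferase, by -0.44 (adjusted p = 0.265).

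**Figure D5:**
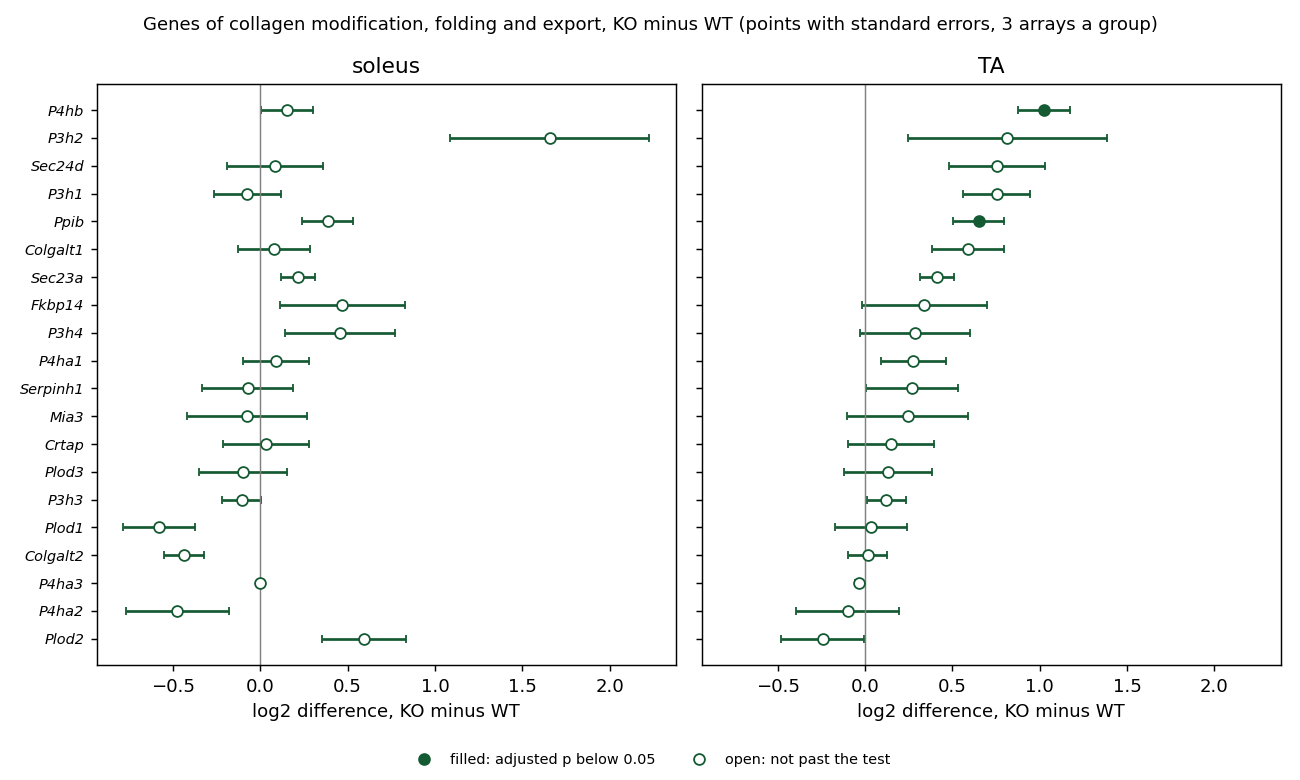
Log2 difference KO minus WT, with standard errors, for 20 genes of procollagen modification, folding and export in soleus (left) and TA (right), 3 arrays a group; filled points passed the test. P4hb (1.03) and Ppib (0.65) are filled in TA, and no gene is in soleus.

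Between the muscles the same list held larger differences. P3h2 was 12.1-fold higher in KO soleus, at 8.39 ± 1.06 against 4.79 ± 0.40 in KO TA (3.60, SE 0.57, limma adjusted p = 0.0043), and 6.75-fold higher in WT soleus, at 6.73 ± 0.27 against 3.98 ± 1.0 in WT TA, where the TA signal is near the floor (2.75, SE 0.57, adjusted p = 0.0144). Plod2, the lysyl hydroxylase of collagen telopeptides, rose by 1.80 in KO soleus (adjusted p = 0.00176) and by 0.97 in WT soleus (adjusted p = 0.0314). Sec23a, a coat protein of the vesicles that carry procollagen out of the ER, fell by 0.74 in KO soleus (adjusted p = 0.00169) and by 0.54 in WT soleus (adjusted p = 0.00697). P4hb fell by 0.60 in KO soleus against KO TA (adjusted p = 0.0331) and Colgalt2 was higher by 0.48 in WT soleus against WT TA (adjusted p = 0.0261). In all, 2 rose and 2 fell of 20 in KO mice, where 8.94% of all genes passed, and 3 rose and 1 fell in WT mice, where 10.7% passed. With the block 2 rose and 5 fell in KO mice, where 16.9% of all genes passed. In WT mice 4 rose, Sec24d added, and 1 fell, where 18.2% passed. These backgrounds, 8.94% and 10.7% without the block and 16.9% and 18.2% with it, hold for the lists that follow too. Leaving out single arrays kept the calls of P3h2 and Sec23a in both genotypes and of Plod2 in KO mice, but ended those of P4hb (adjusted p up to 0.115), of Plod2 in WT mice (up to 0.116) and of Colgalt2 (up to 0.0896). Sec23a in WT mice lost its call without all arrays numbered 3 (adjusted p = 0.0607).

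Of 10 tested genes for the processing and cross-linking of collagen outside the cell, limma called 0 in any of the comparisons, and 1, Tgm2 between the WT muscles, with the replicate block. Pcolce, an enhancer of procollagen C-proteinase, differed by 0.31 between KO and WT soleus and by 0.46 between KO and WT TA, and the cross-linking oxidase gene Loxl1 by 0.59 between the muscles in KO mice and 0.55 in WT mice. Of 9 proteoglycans and other partners of fibrils, 0 passed between KO and WT in either muscle, although in TA all 9 differences were positive, with a median of 0.19. Aspn, a small leucine-rich proteoglycan that binds collagen, was higher in soleus by 1.46 in KO mice (limma adjusted p = 0.00407) and 1.10 in WT mice (adjusted p = 0.0147), and kept both calls when single arrays were left out. The call in WT mice was lost with the mean of probe sets (adjusted p = 0.081), without the arrays numbered 3 (0.0568) and in a fit on the WT arrays alone (0.0603). Fn1, which encodes fibronectin, was higher in soleus by 1.60 in KO mice (adjusted p = 0.0334) and 1.84 in WT mice (adjusted p = 0.0169), and Ogn by 0.94 in WT mice (adjusted p = 0.0434). Both lost their calls when single arrays were left out, Fn1 at adjusted p up to 0.123 and Ogn up to 0.152. With the block 3 of the 9 passed in KO mice, Ogn added, and 4 in WT mice, Prelp added, where 16.9% and 18.2% of all genes passed.

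Among 10 laminins and other partners of the type IV network, 0 passed limma between KO and WT. Nid1, which bridges laminin and type IV collagen, differed by 0.22 in soleus and 0.48 in TA, and Hspg2, the perlecan gene, by -0.33 in soleus. Between the KO muscles Lama5 fell to 5.43 ± 0.16 in soleus against 6.31 ± 0.23 in TA (-0.88, SE 0.17, adjusted p = 0.0122), a call lost without the arrays numbered 3 (adjusted p = 0.0621) and on the KO arrays alone (0.0554). Between the WT muscles Lama4, a laminin chain of vessels, was higher in soleus by 0.70 (SE 0.18, adjusted p = 0.0355), a call lost without any 1 of 5 of the 6 arrays, all but WT soleus replicate 3. Of 13 regulators of collagen genes, 0 passed limma between KO and WT in either muscle. Ccn2, a matricellular gene induced by transforming growth factor beta, was 10.5-fold higher in KO soleus, at 10.58 ± 0.59 against 7.19 ± 0.67 in KO TA (3.39, SE 0.43, adjusted p = 0.00148), and 3.78-fold higher in WT soleus, at 10.16 ± 0.44 against 8.24 ± 0.61 in WT TA (1.92, SE 0.43, adjusted p = 0.0214). The receptor gene Tgfbr2 was higher by 1.0 in WT soleus against WT TA (adjusted p = 0.0244), and by 0.61 with the mean of probe sets, without a call (adjusted p = 0.0621). With the block 2 of the 10 partners passed between the WT muscles, Nid1 added, where 18.2% of all genes passed. Of the 13 regulators 3 passed between the KO muscles, Tgfbr2 and Creb3l1 added, where 16.9% of all genes did, and 3 between the WT muscles, Creb3l1 added.

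Of 8 collagen receptor genes, 0 passed limma between KO and WT, and Cspg4, a proteoglycan of pericytes that binds type VI collagen, was higher in soleus by 1.21 in KO mice (adjusted p = 0.0245) and 1.59 in WT mice (adjusted p = 0.00597). Itgb1, the shared beta-1 integrin chain, was higher by 0.62 in WT soleus against WT TA (adjusted p = 0.0365), but with the mean of probe sets by 0.27 and without a call (adjusted p = 0.341). Of 10 genes of collagen turnover, 0 passed between KO and WT. Timp1, an inhibitor of matrix metalloproteinases, was higher by 3.32 in KO soleus, at 6.85 ± 0.55 against 3.53 ± 1.03 near the floor in KO TA (adjusted p = 0.0198), and Ctsk, a collagen-degrading cathepsin, by 1.15 in WT soleus against WT TA (adjusted p = 0.0291). With the block Timp4 was added as lower in KO soleus, which made 2 of 10 turnover genes there, where 16.9% of all genes passed. Single arrays left out ended the calls of Tgfbr2 and Ccn2 in WT mice (adjusted p up to 0.0936 and 0.0718), of Itgb1 (0.132), Timp1 (0.078) and Ctsk (0.107), and of Cspg4 in KO mice (0.083).

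Markers of connective tissue cells mostly had higher means in soleus, though few passed the test. Of 10 tested fibroblast markers 9 had higher means in soleus in each genotype, with a median of 0.38 in KO and 0.60 in WT mice, and Mfap5, a microfibril protein, passed in both (1.56 and 1.27), as the 1 called in KO mice and 1 of 2 in WT mice, where 8.94% and 10.7% of all genes passed. Their summed signal was 42786 to 68426 in KO soleus against 29798 to 60552 in KO TA, and 48266 to 58934 in WT soleus against 25892 to 51765 in WT TA. Tendon markers were higher in KO soleus in 10 of 10 cases (median 0.93, with Comp at 1.70 and Thbs4 at 1.30 past the test) and in WT soleus in 8 of 10 (median 0.84, with Chad at 1.60 past the test). Of the measured markers, 1 of 11 for fibroblasts and 1 of 10 for tendon stayed below log2 5 in all groups. With the block 3 and 4 of the 10 fibroblast markers and 6 and 4 of the 10 tendon markers passed in KO and WT mice, all higher in soleus. In these blocked fits 16.9% of all genes passed in KO mice and 18.2% in WT mice. The summed signal of the tendon list was 13508 to 20914 in KO soleus against 6620 to 15172 in KO TA, and 15237 to 19262 in WT soleus against 10053 to 11858 in WT TA. Of 5 adipocyte markers measured 3 stayed below log2 5 in all groups, and the 4 tested were all higher in mean in soleus, with medians of 1.85 in KO and 1.56 in WT mice. Adipoq, the adiponectin gene, averaged 10.17 ± 1.06 in KO soleus against 6.54 ± 0.84 in KO TA (3.63, limma adjusted p = 0.0611), and rose to 9.60 ± 1.42 in WT soleus against 4.98 ± 2.08 in WT TA (4.61, adjusted p = 0.0223). With the block Adipoq passed in KO mice as well, and Fabp4 was added in WT mice. The summed signal of the 4 was 20532 to 31988 in KO soleus against 15948 to 20271 in KO TA, and 16923 to 30527 in WT soleus against 11090 to 17231 in WT TA. These sums were mainly those of Fabp4, whose group means were 13.77 to 14.50. Endothelial markers had higher means in WT soleus than in WT TA in 7 of 10 cases and lower in 3 (median 0.14). Of the 10, 2 passed limma as higher in WT soleus, and 4 with the block, Tek, Pecam1, Emcn and Kdr. In KO soleus 4 were higher and 6 lower (median -0.25), with 0 past limma. The part of these cells in the muscle differences of Col8a1, Col4a5, Col11a1, Col22a1 and Col12a1 was not tested.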

How the data were processed

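Total RNA of soleus and TA was hybridised to 12 Affymetrix arrays, per the labels. The authors' deposited table holds log2 signals of 45101 probe sets, from 0.89 to 16.36; the submitters' processing notes name MAS5 without role or version, and no label states how probe sets were summarised. The table was quantile normalized here, because its trimmed mean signals differed by up to 1.11 times between arrays. Of 34945 probe sets with a single symbol in the platform annotation, the brightest per gene was kept if above the 40th percentile of its array on at least 3 arrays, leaving 13008 genes.

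The test was limma 3.58.1 in R 4.3.3 (4 group means, all 12 arrays, variance trend, 2-sided, Benjamini-Hochberg over all genes). Log2 differences are of first over second group. With 3 arrays against 3, an exact permutation test cannot go below p = 0.1. Data were simulated for KO against WT TA over 13008 genes, with independent noise and with changes only in genes of a mean above log2 5. There 48% of log2 changes of 1 and 80% of changes of 2 were recovered. These shares do not cover dimmer genes or the shift of the arrays numbered 3.

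Equal replicate numbers correlated in their deviations from group means at 0.35, 0.16 and 0.56 between the genotypes in TA, at 0.49, 0.43 and 0.59 between soleus and TA of KO mice, at 0.35, 0.14 and 0.59 between those of WT mice, and at 0.43, 0.09 and 0.61 between KO and WT soleus. In the same order, the highest correlation between unequal numbers was 0.24, 0.10, 0.35 and 0.29. Number 2 lay below that value in all but the KO muscles, so the pairing is uncertain elsewhere. It rests on these values and not on the labels. Blocked values stand beside the first 3 comparisons where a call changes.

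The collagen genes and the gene lists were chosen with earlier results of these data known. Collagens past the test and the 4 of highest mean in each class are named, and of other lists up to 4 past the test or 2 of smallest p. Alternatives were other scalings, filters, probe set summaries, variance settings, array weights, a log offset, a replicate block and left-out arrays. Transcript windows came from RefSeq (GRCm38.p6).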

Additional observations from a re-analysis of the deposited data

Results flagged for a closer look

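Collagens were flagged if KO and WT arrays separated without overlap in opposite directions in the 2 muscles, or if the interaction passed. Col4a1 was flagged for its arrays, so their separation is the reason for the choice and no test. The KO soleus arrays lay below those of WT soleus (13.04, 12.82 and 12.87 against 13.23, 13.37 and 13.05). The KO TA arrays lay above those of WT TA (13.33, 13.24 and 13.30 against 13.16, 13.22 and 13.04). The nearest values almost met, 13.04 and 13.05 in soleus and 13.24 and 13.22 in TA. How many of all genes show such a pattern was not counted. The difference of the 2 knockout effects, soleus minus TA, was -0.46 on the log2 scale (SE 0.14) and was not past the test over all genes (limma adjusted p = 0.625). It lay between -0.57 and -0.38 over the 22 alternatives run, at adjusted p of 0.2 to 0.986.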

How the results depend on the processing

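Between KO and WT, 0 collagens were called in either muscle or in the interaction under every alternative run, except that array weights called 1 in soleus, Col4a1 at -0.41 (adjusted p = 0.0374); leaving out single arrays gave 0 to 0. Between the WT muscles the count of 3 became 5 with array weights and 5 with the replicate block, and 0 to 2 when single arrays were left out, with 0 without WT soleus replicate 1 and 1 without WT soleus replicate 2 or WT TA replicate 1. Between the KO muscles the count of 4 became 1 with no filter, 2 with the mean of probe sets, 8 with the replicate block, 2 without the arrays numbered 3, 1 in a fit on the 2 groups alone, and 1 to 3 when single arrays were left out, with 1 without KO soleus replicate 1 or KO TA replicate 3 and 2 without KO TA replicate 2. The block changed no collagen call between KO and WT, and in TA it added Sec23a, P3h1 and Casq1 among the other lists. The cause of these changes was not tested. Col8a1 kept its call between the KO muscles in all 17 alternatives (1.46 to 2.42) and between the WT muscles in 16 of 17 (1.03 to 2.01). Of the other calls, Col4a5 in WT mice kept 14 of 17, Col22a1 10 of 17, Col11a1 7 of 17 and Col4a1 7 of 17 in KO mice, and Col9a3 5 of 16. The signs of Col1a1 between KO and WT TA (-0.0043 to 0.51 with single arrays left out, the lowest without KO TA replicate 1) and of Col4a1 between the WT muscles (-0.00095 to 0.16, the lowest without WT soleus replicate 2) turned; both were uncalled. Of all genes, soleus calls went from 4 to 360 with array weights, and TA calls from 368 to 911 with the block, 56 without the arrays numbered 3 and 4 on the TA arrays alone. Signals near the floor, those of 21 of the 42 genes, limit what can be seen of their differences.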
